A study of Homo sapiens with 2 samples.

Results

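The solute carrier genes were followed in 2 RNA-seq libraries of ACHN, a human cell line from a renal carcinoma, and they comprised every listed gene whose symbol is SLC, a family number, A and a member number. There were 177 such genes from 43 families among the 12014 listed genes. The labels describe a KIAA1429 knockout and a negative control. The methods of the study describe cells infected with lentivirus that carried a KIAA1429 shRNA (the shKIAA1429 group) or a negative control (shNC), both kept under puromycin until stable lines were obtained, and do not name which KIAA1429 shRNA was sequenced. There was 1 library per group, so the differences below could not be checked against replicates and were not tested. Values are FPKM, fragments scaled to gene length and to the size of the library, as the authors deposited them.

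Solute carriers are membrane proteins that move small molecules by facilitated diffusion or by coupling to gradients of sodium, protons or other solutes. Some sit in the plasma membrane, where they take up amino acids, glucose, phosphate and metal ions, and others serve the lysosome, the Golgi or the mitochondrion. The SLC25 family forms the carriers of the inner mitochondrial membrane. In the kidney, the proximal tubule uses solute carriers to recover sugars, amino acids and phosphate from the filtrate, and tumor cells depend on them for amino acids and for the export of lactate. The rule kept neither the organic anion transporters named SLCO nor the nucleotide sugar transporters of SLC35 beyond subfamily A.

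KIAA1429, listed as VIRMA, was at 3.92 and 3.22 FPKM with shNC and shKIAA1429, so that 82.1% of its control level was left. Its log2 change of -0.22 became -0.10 when the libraries were rescaled to the same sum. That rescaling moved the median log2 change of all genes by 0.18, and by 0.01 with mitochondrially encoded genes left out of the sum. The target itself thus differed little between these 2 libraries. By RT-qPCR and western blot, the paper reports less KIAA1429 mRNA and protein in ACHN cells with the shRNA. The libraries are grouped by the labels, while the group names follow the methods of the study. The listed genes summed to 283046 FPKM with shNC and to 249409 FPKM with shKIAA1429, and the 13 mitochondrially encoded genes made up 42.2% and 34.6% of these sums. Of 16 markers of renal epithelium and carcinoma lines, 11 were listed, 4 higher and 7 lower with shKIAA1429 and with a median log2 change of -0.19. Of all genes with a mean of at least 1 FPKM, 42.7% were lower. PAX8 was at 64.7 and 104 FPKM, KRT8 at 78.3 and 74.6 FPKM, EPCAM at 32.8 and 23.1 FPKM and VIM at 368 and 228 FPKM with shNC and shKIAA1429, while CA9, CA12, CDH6, LRP2 and CUBN were not among the rows analysed here. Of 8 markers of other cell types, ACTA2 was listed at 47.1 and 76.2 FPKM, COL1A1 at 1.08 and 1.62 FPKM and CD68 at 3.87 and 2.06 FPKM. The depth of the libraries is unknown, and in bulk RNA fewer cells with a transcript and less of it per cell cannot be told apart.

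The solute carriers summed to 1662 and 1795 FPKM with shNC and shKIAA1429, 1.02% and 1.10% of the listed FPKM outside the mitochondrially encoded genes. Their levels spanned a wide range. The median member was at 3.77 FPKM with shNC and 3.80 FPKM with shKIAA1429, below the medians of 4.84 and 5.15 FPKM over all listed genes. The 10 most abundant members held 44.1% of the summed FPKM of the family with shNC and 47.1% with shKIAA1429, and 38 of the 177 had a mean of at least 10 FPKM. At the top stood the ADP/ATP carriers SLC25A6 and SLC25A5, which exchange ATP made in the mitochondrion for ADP, at 149 and 126 FPKM with shNC. SLC25A3, the mitochondrial phosphate carrier, followed with 86.0 FPKM, and SLC48A1, a heme transporter of endosomes and lysosomes, with 85.7 FPKM. With shKIAA1429 the first 4 places were held by SLC48A1 at 132 FPKM, SLC25A6 at 128 FPKM, SLC38A2 at 105 FPKM and SLC25A5 at 97.7 FPKM. The low end held 26 members with a mean under 1 FPKM, which ranged from 0.128 to 1.36 FPKM and were left out of the counts of change.

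**Figure D1:**
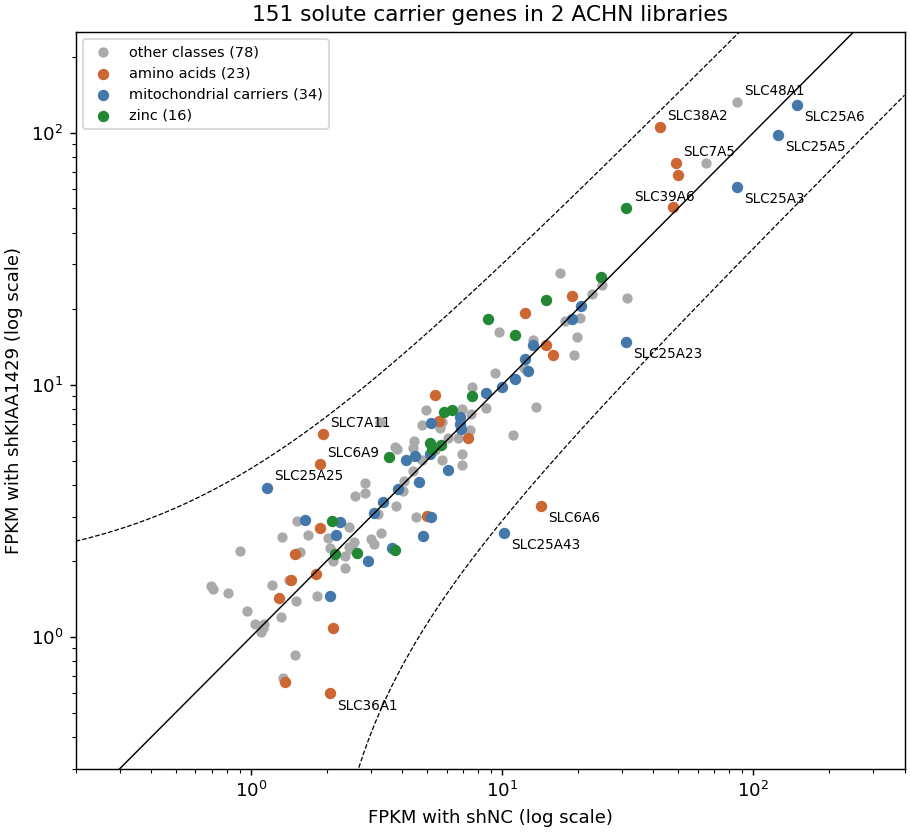
Level of the 151 solute carrier genes with a mean of at least 1 FPKM, as FPKM with shNC on the x axis and FPKM with shKIAA1429 on the y axis, both on a log scale, with 1 point per gene colored by transport class. The solid line marks equal levels and the dashed lines a log2 change of 1.5 in either direction after adding 1 to each FPKM, and SLC6A6 and SLC25A43 are the points beyond the lower dashed line.

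To each FPKM 1 was added, and the change of a gene is the log2 ratio of shKIAA1429 to shNC, which makes the changes of low genes look smaller. Among the 151 members with a mean of at least 1 FPKM, 86 were higher and 65 were lower with shKIAA1429, and their median log2 change was 0.03, beside 0.06 over all 10702 genes that passed the same minimum. Beyond 1.5, the limit in the methods of the study, 0 members were higher, where 0.383% of all genes were, and 2 members were lower (1.32%), where 0.252% of all genes were. Beyond 1, 4 members were higher (2.65%, against 1.61% of all genes) and 3 were lower (1.99%, against 0.897%). Beyond 0.5, 21 members were higher (13.9%, against 9.9% of all genes) and 14 were lower (9.27%, against 6.12%). Apart from the count of 0, the share of members past each limit was above that of all genes, on counts of 2 to 21 members, and no test of this was run. Rescaling each library to the same sum moved the median of all genes up by 0.18. It turned the sign of 28 members, each within 0.15 of no change, and of none of the 35 members past 0.5. With the 13 mitochondrially encoded genes left out of the sum, rescaling moved that median by 0.01 and turned the sign of 1 member. The turns on rescaling to the same sum given below are those with the mitochondrially encoded genes in the sum.

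**Figure D2:**
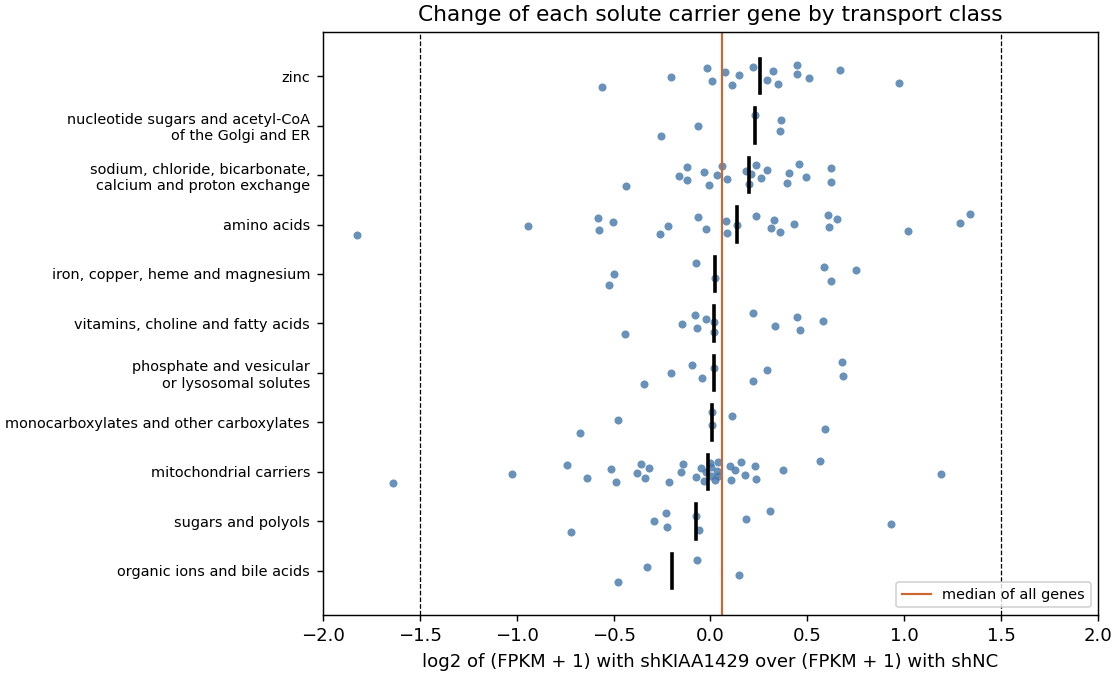
Log2 change of each solute carrier gene with a mean of at least 1 FPKM, on the x axis, in the 11 transport classes with at least 4 such genes, with 1 point per gene, a black bar at the class median and an orange line at the median of all genes. Class medians ran from -0.20 for organic ions and bile acids to 0.26 for zinc, and the points of most classes spread on both sides of the orange line.

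The amino acid transporters were the class whose summed level was most different in the direction of shKIAA1429. Its 26 listed genes summed to 309 FPKM with shNC and to 424 FPKM with shKIAA1429, a ratio of 1.37, beside 1.34 for zinc transporters. Much of the difference between the amino acid sums came from SLC38A2 alone, at 42.6 and 105 FPKM. Within the class the changes were uneven: of 23 genes with a mean of at least 1 FPKM, 14 were higher and 9 were lower, the median log2 change was 0.14, and the extremes were 1.34 and -1.82. Transporters named in the amino acid response, in which the factor ATF4 acts when amino acids are short or the endoplasmic reticulum is stressed, formed 1 of the lists. Of 11 genes in that list 9 were listed, and all 9 were higher with shKIAA1429, as were 57.3% of all genes. Their median log2 change was 0.60, and 5 of the 9 were higher by more than 0.5, as were 9.9% of all genes. All 9 stayed higher after rescaling to the same sum, where 74.6% of all genes were higher. The list was chosen with earlier results of these data known, so these counts are a description only.

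SLC38A2 (chromosome 12 of GRCh37, 46751972 to 46766650), the sodium-coupled transporter SNAT2 that brings in alanine, glutamine and other neutral amino acids, was at 42.6 FPKM with shNC and 105 FPKM with shKIAA1429, a log2 change of 1.29. No other member showed so large a difference in FPKM. SLC7A11 (chromosome 4, 139085251 to 139163503), the light chain of the cystine/glutamate exchanger that supplies cysteine for glutathione, was at 1.92 and 6.38 FPKM, a log2 change of 1.34 that was rank 61 from the highest among all genes. Its heavy chain SLC3A2, which carries several light chains to the cell surface, was at 12.3 and 19.3 FPKM, a log2 change of 0.60. SLC7A5 (LAT1), the leucine and large neutral amino acid exchanger that pairs with the same heavy chain, was at 49.3 and 75.7 FPKM, a log2 change of 0.61. The light chain SLC7A6 was at 15.0 and 14.3 FPKM. Its log2 change of -0.06 turned to 0.11 on rescaling to the same sum, so its direction was not settled by these values. SLC6A9, the glycine transporter GLYT1, was at 1.88 and 4.84 FPKM, a log2 change of 1.02, and it overlaps CCDC24 on the other strand.

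The remaining genes of the amino acid response list differed less. SLC38A1, a glutamine transporter close to SLC38A2, was at 50.2 and 67.9 FPKM with shNC and shKIAA1429. SLC1A4, a carrier of serine and alanine, was at 5.59 and 7.20 FPKM, and SLC7A1, which imports arginine and lysine, at 18.9 and 22.5 FPKM. SLC1A5 (ASCT2), the glutamine exchanger, was at 47.9 and 50.8 FPKM, a log2 change of 0.08 that was close to the median of all genes. SLC1A5, SLC7A5, SLC3A2 and SLC7A1 are also on a list of 8 transporters linked to MYC, a transcription factor that promotes nutrient uptake. Of the 7 that were listed, 6 were higher and 1 was lower, with a median log2 change of 0.18. Of all genes 57.3% were higher, with a median of 0.06. After rescaling to the same sum all 7 were higher, as were 74.6% of all genes. In that list SLC2A1 was at 13.2 and 15.1 FPKM, SLC16A1 at 17.7 and 17.9 FPKM and SLC19A1 at 1.12 and 1.09 FPKM. SLC19A1 turned from -0.02 to 0.11 on the log2 scale when the libraries were rescaled to the same sum.

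Because the genes of the amino acid response list were higher together, their promoters were searched for TGATGNAA on both strands, a spelling of the composite element that ATF4 binds with C/EBP factors, where N is any base. The promoters, from RefSeq on GRCh38.p14, run from 250 bases before to 50 bases after each annotated start, and a gene can have several. For 8 of the 9 genes 14 promoters were given, and 5 of the 14 held the motif, 1 in each of 5 genes, beside 3.62% of all 35116 promoters. SLC7A11 had no entry. Genes were put on this list for their link to the ATF4 response, with earlier results of these data known. The shares are therefore a description only. The stretches of 30 bases around the matches are shown 5′ to 3′ on the strand of the gene, with the match in capitals, which reads TTNCATCA where it lies on the other strand.
SLC1A4, chr2:64989381-64989410, plus strand: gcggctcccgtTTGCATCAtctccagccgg
SLC1A5, chr19:46784893-46784922, minus strand: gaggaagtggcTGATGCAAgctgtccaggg
SLC38A1, chr12:46266502-46266531, minus strand: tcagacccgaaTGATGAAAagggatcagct
SLC3A2, chr11:62881719-62881748, plus strand: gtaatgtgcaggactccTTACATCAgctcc
SLC7A1, chr13:29595663-29595692, minus strand: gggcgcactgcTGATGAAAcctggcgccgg
Read in the direction TGATGNAA, the matches of SLC1A5 and SLC1A4 have C at the place of N. Those of SLC38A1 and SLC7A1 have A, and that of SLC3A2 has T. The 5 genes with the motif had log2 changes of 0.31, 0.08, 0.43, 0.60 and 0.24 in the order shown. SLC38A2, SLC6A9 and SLC7A5 had no match in these windows and had log2 changes of 1.29, 1.02 and 0.61. A match is a description of letters and not a bound site.

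The E-box CACGTG, the hexamer that MYC binds with MAX and which is its own reverse complement, was searched in the same way in the list linked to MYC. It stood in 3 of 13 promoters of 6 listed genes, beside 7.26% of all promoters, and SLC16A1 had no entry. Genes were put on this list for their link to MYC, so these shares too are a description only. The stretches below show the hexamer in capitals, again on the strand of the gene and on GRCh38.p14.
SLC7A5, chr16:87869620-87869649, minus strand: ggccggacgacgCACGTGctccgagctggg
SLC1A5, chr19:46787326-46787355, minus strand: ggcgggagtggtCACGTGgacaggacgggg
SLC19A1, chr21:45541797-45541826, minus strand: ttcgcgcccaggCACGTGttgcttcgggac
The 3 genes with the hexamer had log2 changes of 0.61, 0.08 and -0.02 in the order shown, the last of which is the value that turned on rescaling.

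**Figure D3:**
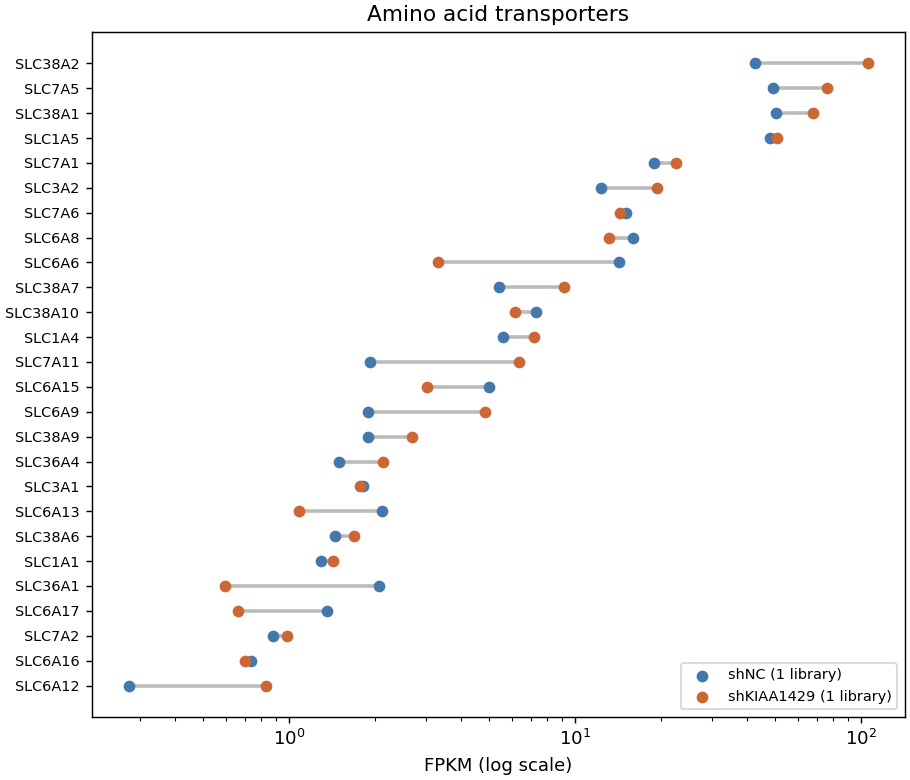
FPKM of the 26 listed amino acid transporters with shNC (blue) and shKIAA1429 (orange) on a log scale, 1 row per gene in order of mean level, with a gray bar joining the 2 libraries. The longest bars with the orange point to the right are those of SLC38A2, SLC7A11 and SLC6A9 and, at low levels, SLC6A12, and the longest with the orange point to the left are those of SLC6A6 and SLC36A1.

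Against this direction stood SLC6A6 (chromosome 3 of GRCh37, 14444076 to 14530857), the sodium- and chloride-coupled taurine transporter that cells use to hold this osmolyte. It was at 14.2 and 3.32 FPKM with shNC and shKIAA1429, leaving 23.3% of the control level, a log2 change of -1.82 and rank 14 from the lowest among all genes. It was the solute carrier with the lowest change. Transporters of other osmolytes were at higher levels with shKIAA1429. SLC5A3, which imports myo-inositol, was at 3.25 and 7.10 FPKM, a log2 change of 0.93, and it overlaps MRPS6 on the same strand, whose FPKM added to it gave a log2 change of 0.60. SLC6A12, the betaine transporter, was at 0.275 and 0.827 FPKM and under the minimum mean. The relatives of SLC6A6 were also divided. SLC6A13, a carrier of GABA and taurine, was at 2.12 and 1.08 FPKM, SLC6A15, a carrier of branched-chain amino acids, at 4.99 and 3.03 FPKM, and SLC6A8, the creatine transporter, at 15.9 and 13.2 FPKM, whereas SLC6A9 had the higher level with shKIAA1429. As a family SLC6 summed to 41.5 and 27.6 FPKM, while SLC38 summed to 109 and 193 FPKM. Most of these differences came from single genes, SLC6A6 and, at 42.6 and 105 FPKM, SLC38A2. Within SLC38, SLC38A10 was lower, at 7.32 and 6.16 FPKM.

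Among transporters of the lysosomal membrane, SLC36A1, which lets amino acids leave the lysosome with protons, was at 2.07 FPKM with shNC and 0.597 FPKM with shKIAA1429, a log2 change of -0.94. Its relative SLC36A4 was at 1.5 and 2.13 FPKM, and SLC38A9, the lysosomal arginine sensor of mTORC1, at 1.88 and 2.70 FPKM. SLC38A7, a lysosomal glutamine exporter, was at 5.42 and 9.11 FPKM, a log2 change of 0.66. Lysosomal amino acid transporters therefore lay on both sides of no change.

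The mitochondrial carriers were the largest class and held the greatest share of FPKM. The 38 listed SLC25 genes summed to 599 FPKM with shNC and 501 FPKM with shKIAA1429, a ratio of 0.838 that became 0.951 when the libraries were rescaled to the same sum. They made up 36% of the solute carrier sum with shNC and 27.9% with shKIAA1429. Of the 34 with a mean of at least 1 FPKM, 16 were higher and 18 were lower, a division that centring or rescaling shifts since many were near 0, and the median log2 change of -0.01 was below the 0.06 of all genes. The difference in the sum came mainly from the most abundant carriers. SLC25A6 was at 149 and 128 FPKM, SLC25A5 at 126 and 97.7 FPKM and SLC25A3 at 86.0 and 61.1 FPKM, with log2 changes of -0.22, -0.36 and -0.49. SLC25A5 and SLC25A6 are near-identical in sequence and have many pseudogene copies, so reads could have been divided between them. SLC25A4, the ADP/ATP carrier of muscle and heart, was at 3.86 FPKM in both libraries.

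**Figure D4:**
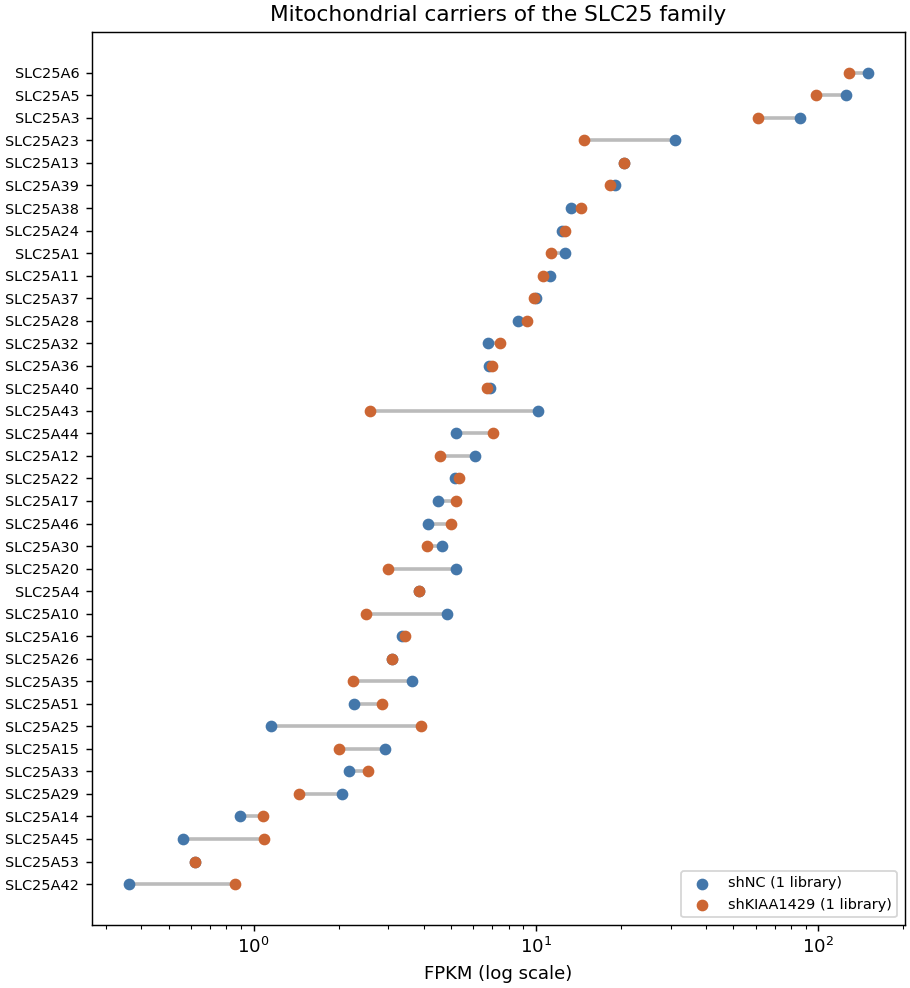
FPKM of the listed SLC25 carriers, without 1 that is not reported here, with shNC (blue) and shKIAA1429 (orange) on a log scale, 1 row per gene in order of mean level, with a gray bar joining the 2 libraries. The bars of SLC25A43 and SLC25A23 reach far to the left of the control and that of SLC25A25 far to the right, while points of many carriers nearly coincide.

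The carriers of ATP-magnesium and phosphate, which set the adenine nucleotide pool of the matrix and respond to calcium, differed among themselves. SLC25A23 (chromosome 19 of GRCh37, 6436090 to 6465214) was at 31.1 FPKM with shNC and 14.8 FPKM with shKIAA1429, a log2 change of -1.02. Its paralog SLC25A25 (chromosome 9, 130830480 to 130871524) was at 1.15 and 3.91 FPKM, a log2 change of 1.19, and SLC25A24 was at 12.3 and 12.7 FPKM. The paralogs thus lay at opposite ends of the family, with SLC25A23 the most abundant of the 3 in both libraries. Each of these 2 overlaps a gene on the other strand that was lower with shKIAA1429, CRB3 at 9.19 and 5.99 FPKM for SLC25A23 and NAIF1 at 2.44 and 1.83 FPKM for SLC25A25, and the part of these genes was not tested. SLC25A43 (chromosome X, 118533023 to 118588441), a carrier without a settled substrate, was at 10.2 and 2.59 FPKM, which is 25.4% of the control level. Its log2 change of -1.64 was the other one past the limit of 1.5.

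Carriers of metabolites had a median log2 change of -0.32. Of the 9 listed genes in that group 1 was higher and 8 were lower with shKIAA1429, where 42.7% of all genes were lower, and after rescaling to the same sum 4 were higher and 5 were lower, where 25.4% of all genes were lower. SLC25A10, the dicarboxylate carrier that exchanges malate and succinate for phosphate, was at 4.85 and 2.51 FPKM, a log2 change of -0.74. SLC25A20, which brings acylcarnitines in for fatty acid oxidation, was at 5.22 and 3.00 FPKM, a log2 change of -0.64. The citrate carrier SLC25A1 was at 12.7 and 11.3 FPKM and the oxoglutarate carrier SLC25A11 at 11.2 and 10.6 FPKM, and both turned above 0 when the libraries were rescaled to the same sum. For the aspartate-glutamate carriers of the malate-aspartate shuttle, SLC25A12 was at 6.06 and 4.59 FPKM and SLC25A13 at 20.5 FPKM in both libraries, with a log2 change that became 0.18 on that rescaling. The glutamate carrier SLC25A22 was the higher one, at 5.15 and 5.32 FPKM, and turned below 0 on centring, while the carriers of ornithine and of basic amino acids, SLC25A15 and SLC25A29, were at 2.91 and 2.00 FPKM and at 2.05 and 1.45 FPKM. By contrast, carriers of nucleotides, cofactors and iron differed little, with 11 of 12 within 0.5 and a median of 0.07. These 11 ranged from -0.05 to 0.18 on the log2 scale, from SLC25A39 to the peroxisomal carrier SLC25A17 at 4.48 and 5.19 FPKM, and SLC25A16, SLC25A26, SLC25A32, SLC25A33, SLC25A36 and SLC25A40 lay between these. SLC25A42, a carrier of coenzyme A, was under the minimum mean at 0.362 and 0.856 FPKM. The mitoferrins SLC25A37 and SLC25A28, which import iron, were at 10.02 and 9.83 FPKM and at 8.6 and 9.30 FPKM. SLC25A39, needed for mitochondrial glutathione, was at 19 and 18.3 FPKM, and SLC25A38, a glycine carrier of heme synthesis, at 13.3 and 14.4 FPKM.

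Zinc transporters had the highest median log2 change of the classes. The 17 listed genes summed to 142 FPKM with shNC and 190 FPKM with shKIAA1429, a ratio of 1.34. Of 16 with a mean of at least 1 FPKM, 13 were higher (81.3%, beside 57.3% of all genes) and 3 were lower. Beyond 0.5, 3 were higher and 1 was lower, where 9.9% and 6.12% of all genes were. The SLC39 (ZIP) proteins bring zinc into the cytosol. SLC39A6, the most abundant, was at 31.2 and 50.2 FPKM, a log2 change of 0.67. SLC39A1, a zinc importer of the plasma membrane, was at 8.76 and 18.2 FPKM, a log2 change of 0.97, and it overlaps CREB3L4 on the other strand, at 1.65 and 0.950 FPKM. SLC39A14, which also carries iron and manganese, was at 15.0 and 21.7 FPKM, whereas SLC39A7, which releases zinc from the endoplasmic reticulum, was at 24.8 and 26.8 FPKM. The intestinal importer SLC39A4 was at 3.75 and 2.22 FPKM, a log2 change of -0.56, and SLC39A3 and SLC39A11 were the other SLC39 genes on that side, at -0.20 and at -0.02, the last of which turned to 0.14 on rescaling to the same sum. The SLC30 (ZnT) proteins move zinc out of the cytosol. SLC30A1, the exporter at the cell surface, was at 11.2 and 15.7 FPKM, and all 5 SLC30 genes with a mean of at least 1 FPKM were higher with shKIAA1429, by 0.01 to 0.45 on the log2 scale, the lowest of which, SLC30A6, turned below 0 on centring. Importers and exporters of zinc thus leaned the same way.

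**Figure D5:**
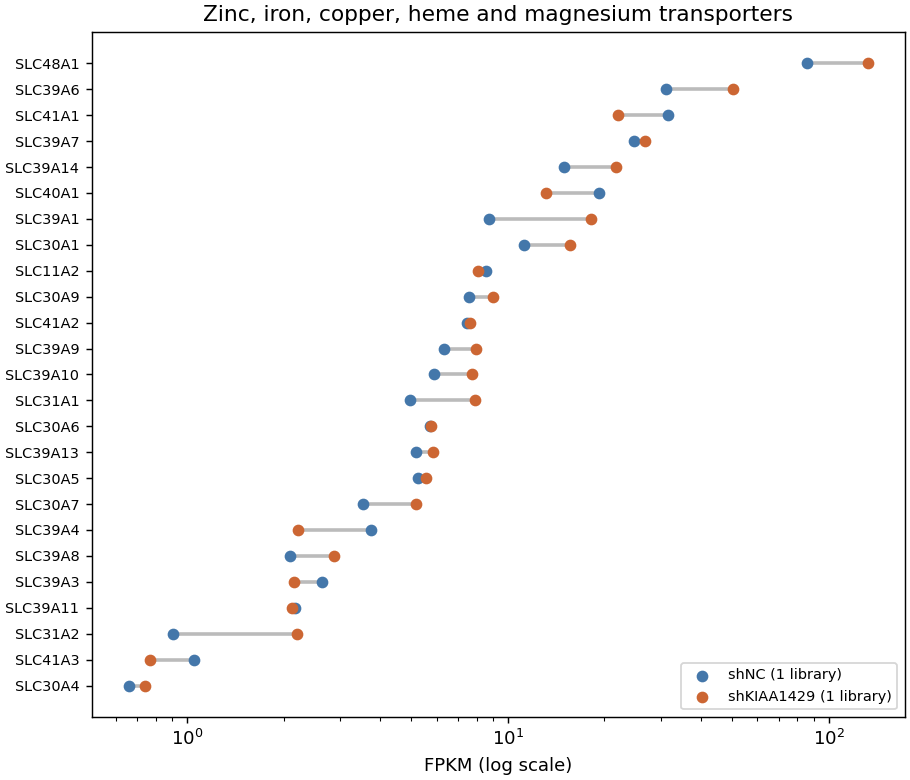
FPKM of the listed transporters of zinc, iron, copper, heme and magnesium with shNC (blue) and shKIAA1429 (orange) on a log scale, 1 row per gene in order of mean level, with a gray bar joining the 2 libraries. SLC48A1, SLC39A6 and SLC39A1 show the orange point to the right, and SLC41A1, SLC40A1 and SLC39A4 show it to the left.

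Transporters of other metals were divided. SLC48A1 was at 85.7 FPKM with shNC and 132 FPKM with shKIAA1429, a log2 change of 0.62. It overlaps HDAC7 and RAPGEF3 on the other strand, and RAPGEF3 was at 19.7 and 55.1 FPKM. The library kit marks strand, but whether reads were assigned by strand is not given in the sources used here, and the part of RAPGEF3 in this value was not tested. The copper importer SLC31A1 was at 4.95 and 7.93 FPKM and its relative SLC31A2 at 0.903 and 2.20 FPKM, with log2 changes of 0.59 and 0.75, and each overlaps a listed gene on the other strand too. SLC40A1 (ferroportin), the iron exporter, was at 19.3 and 13.1 FPKM, a log2 change of -0.52, while the iron importer SLC11A2 was at 8.58 and 8.08 FPKM. The magnesium transporter SLC41A1 was at 31.5 and 22.1 FPKM. The summed ratio of these metals was 1.22, and 0.761 without the genes that overlap a listed gene on either strand, and it was 0.838 without SLC48A1 alone and 1.198 without the copper transporters alone, so the direction of this class rested on SLC48A1.

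Ions and phosphate made up a further pair of classes. Of 21 transporters of sodium, chloride, bicarbonate, calcium and protons with a mean of at least 1 FPKM, 15 were higher (71.4%, beside 57.3% of all genes) and 6 were lower, and the median log2 change was 0.20. Of the 9 genes for phosphate and for vesicular or lysosomal solutes 5 were higher and 4 were lower, with a median of 0.02. SLC4A2, a chloride/bicarbonate exchanger and the most abundant of the ion class, was at 24.9 and 24.8 FPKM. SLC26A2, a sulfate transporter, was at 6.92 and 8.00 FPKM, and the potassium-chloride cotransporter SLC12A7 at 5.77 and 7.12 FPKM. Among the 21 counted genes of the ion class, the sodium/calcium exchangers SLC8A1 and SLC24A2 had the largest changes, both 0.62 on the log2 scale. They were at 1.52 and 2.87 FPKM and at 0.690 and 1.60 FPKM. Among phosphate transporters, SLC34A2 was at 64.9 and 75.7 FPKM, and SLC20A1 (PiT1) was at 17 and 27.7 FPKM, a log2 change of 0.68. SLC17A1 and SLC17A3, proximal tubule transporters of urate on chromosome 6, differed in direction: SLC17A1 was at 19.9 and 15.5 FPKM and SLC17A3 at 9.67 and 16.1 FPKM, log2 changes of -0.34 and 0.68.

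For carbon sources the class sums differed little, although single genes lay further from no change in both directions. The 11 listed transporters of sugars and polyols summed to 43.6 FPKM with shNC and 43.3 FPKM with shKIAA1429, and the 8 of carboxylates to 63.5 and 59.0 FPKM, ratios that turned above 1 in both classes when the libraries were rescaled to the same sum. SLC2A1 (GLUT1), the basal glucose transporter, had a log2 change of 0.18, and SLC2A3 (GLUT3) was at 3.00 and 2.43 FPKM. SLC50A1, a sugar efflux protein of the Golgi, was at 11.1 and 6.33 FPKM, a log2 change of -0.72. The myo-inositol importer SLC5A3, described above with its overlap of MRPS6, belongs to the class of sugars and polyols and had a log2 change of 0.93. Of the monocarboxylate transporters, SLC16A1 (MCT1) and SLC16A4 each had a log2 change of 0.01, the latter at 22.8 and 22.9 FPKM, and SLC16A13 was at 13.6 and 8.17 FPKM, a log2 change of -0.67. SLC16A12, a creatine transporter, was at 1.32 and 2.5 FPKM. In a list of 7 transporters of the hypoxia response, which holds SLC2A1, SLC2A3, SLC6A8, SLC11A2 and SLC40A1, 6 were listed, 2 higher and 4 lower, with a median log2 change of -0.15. SLC11A2 was the 1 of them that changed sign on rescaling to the same sum, which left 3 higher and 3 lower. Of all genes 42.7% were lower, and 25.4% after that rescaling.

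Vitamins, choline, fatty acids and nucleosides made up the rest of the nutrient carriers. Of 12 genes for vitamins, choline and fatty acids with a mean of at least 1 FPKM, 7 were higher and 5 were lower, with a median log2 change of 0.02. The choline transporters SLC44A2 and SLC44A1 lay apart, at 7.56 and 9.78 FPKM and at 6.88 and 4.82 FPKM. SLC5A6, which imports biotin and pantothenate, was at 7.43 and 6.60 FPKM, the riboflavin transporter SLC52A2 at 5.67 and 6.75 FPKM and the thiamine transporter SLC19A2 at 4.81 and 6.91 FPKM. SLC23A3 and SLC52A1 were low, at 0.707 and 1.55 FPKM and at 0.811 and 1.5 FPKM. SLC29A1 (ENT1), the main nucleoside carrier, was at 20.3 and 18.4 FPKM, and the summed ratio of the nucleoside class, 0.897, became 1.02 on rescaling to the same sum. In the Golgi, SLC35A1, which imports CMP-sialic acid, was at 9.36 and 11.1 FPKM, SLC35A4 at 12.2 and 11.6 FPKM and SLC35A5 at 4.44 and 5.98 FPKM, and SLC33A1, the acetyl-CoA transporter of the endoplasmic reticulum, at 2.59 and 3.63 FPKM. The lysosomal histidine and peptide transporters SLC15A4 and SLC15A3 were at 4.78 and 5.03 FPKM and at 1.13 and 1.12 FPKM.

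Transporters that mark segments of the kidney were mostly not listed. Of 32 genes of the proximal tubule 8 were listed, and SLC22A6, SLC22A8, SLC5A2 and SLC34A1, the carriers of organic anions, glucose and phosphate that define this segment, were not among the rows analysed here. Apart from SLC17A1 and SLC17A3, the highest was SLC4A4, the basolateral bicarbonate cotransporter, at 5.73 and 5.02 FPKM. SLC13A3 was at 2.45 and 2.73 FPKM, SLC2A2 at 2.37 and 1.88 FPKM, SLC3A1 at 1.81 and 1.77 FPKM, SLC47A1 at 1.34 and 0.684 FPKM and SLC23A1 at 0.578 and 0.559 FPKM. The 7 with a mean of at least 1 FPKM had a median log2 change of -0.16, with 2 higher and 5 lower, where 42.7% of all genes were lower. After rescaling to the same sum 3 of the 7 were higher and 4 were lower, where 25.4% of all genes were lower. Of 9 genes of the loop, distal tubule and collecting duct, 2 were listed, SLC8A1 among them. Both were higher with shKIAA1429, as were 57.3% of all genes. For organic ions and bile acids, SLC10A3 was at 6.88 and 5.29 FPKM, the carnitine transporter SLC22A5 at 1.42 and 1.68 FPKM and SLC22A18 at 1.51 and 1.39 FPKM.

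Proteins on which solute carriers depend were taken from a list of 22 genes that are not members, of which 14 were listed. The sodium pump sets the gradient for sodium-coupled uptake. Its beta subunits ATP1B1 and ATP1B3 were at 31 and 45.6 FPKM and at 17.6 and 32.4 FPKM with shNC and shKIAA1429, log2 changes of 0.54 and 0.84. BSG, the chaperone of monocarboxylate transporters, was at 81.9 and 74.2 FPKM. PDZK1, a scaffold that holds transporters at the apical membrane, was at 16.9 and 10.1 FPKM, a log2 change of -0.69. MPC1 and MPC2, which form the mitochondrial pyruvate carrier, were at 2.86 and 2.95 FPKM and at 88.0 and 69.6 FPKM. The 13 of these genes with a mean of at least 1 FPKM had a median log2 change of -0.05, 5 higher and 8 lower. Of all genes 42.7% were lower. After rescaling to the same sum 10 of the 13 were higher and 3 were lower, where 25.4% of all genes were lower.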

How the data were processed

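Libraries of ACHN cells were analysed, 1 per group, grouped by the treatment given in the labels. The authors deposited FPKM values per gene. The processing notes of the submitters name cutadapt 1.9, HISAT2 2.0.4, StringTie 1.3.4d, DESeq2 and edgeR, with no role or order, and the poly(A) libraries were strand-specific and paired-end. The genome build is not given in the sources used here. Positions were read as GRCh37, from the suffix of the gene identifiers, and 2 of 177 positions were identical to GENCODE 29 on GRCh38. Only protein-coding genes above 0.5 FPKM in at least 1 library are listed, and depth is unknown.

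A pseudocount of 1 was added, genes with a mean of at least 1 FPKM were kept, and the row with the highest mean stood for each of 7 repeated symbols. With 1 library per group no test was run. The rule for named genes took the 25 most abundant members, the 12 highest and 12 lowest changes, leading members of each transport class and the fixed lists. The transport classes follow family numbers. Alternatives were a pseudocount of 0.1, centring, rescaling to a sum of 1000000 with and without mitochondrial genes, other minimum means, a limit of 1, summing rows of a symbol and leaving out overlapping genes. The members and lists were chosen with earlier results of these data known. The steps were tested on simulated data. Python 3.11.15, NumPy 2.4.6, pandas 2.3.3 and matplotlib 3.10.9 were used. Values of a few named genes are not reported here.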

Additional observations from a re-analysis of the deposited data

How the results depend on the processing

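With 1 library per group and no depth, a change of a low gene cannot be told from counting error. No paired analysis was possible because each group holds 1 library. The 2 members lower by more than 1.5, SLC6A6 and SLC25A43, were past this limit under every alternative that was tried. The count of 0 higher members became 2, SLC7A11 and SLC25A25, with a pseudocount of 0.1 and after rescaling to a sum of 1000000 with or without mitochondrial genes, and 4 with a limit of 1. The count of 2 lower members became 3 with a pseudocount of 0.1, after rescaling without mitochondrial genes and with a limit of 1. SLC36A1 was the third of them under the first 2 of these settings, at -1.64 and -1.55, and SLC25A23 under the last. By construction a smaller pseudocount, or larger values beside the same pseudocount, widens the changes of low genes. The median log2 change of members, 0.03, became 0.21 after rescaling to a sum of 1000000, when that of all genes became 0.24, and stayed between -0.03 and 0.04 under the other alternatives. Members past 0.5 went from 21 higher and 14 lower to 42 and 14 with that rescaling and to 28 and 20 with a pseudocount of 0.1. Leaving out members that overlap a listed gene on either strand, an alternative chosen after seeing the data, left 108 members and the counts of 0 and 2. The ratios without SLC48A1 and without the copper transporters were likewise added after seeing the data.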

Other observations

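Transporter families outside the rule were described in the same way, as values only. Of 25 genes with SLC symbols beyond the rule and a mean of at least 1 FPKM, 14 were higher and 11 were lower with shKIAA1429, with a median log2 change of 0.01. SLCO4A1, an organic anion transporter that carries thyroid hormone, was at 3.53 FPKM with shNC and 12.2 FPKM with shKIAA1429, a log2 change of 1.55, above the highest value of the members, 1.34. The nucleotide sugar transporter SLC35D2 was at 18.8 and 9.17 FPKM, a log2 change of -0.96, and SLC35E1 at 7.6 and 3.70 FPKM. These genes were named after their values were seen. Among 18 ABC transporters the median log2 change was 0.02, with 2 higher and 0 lower by more than 0.5, where 9.9% and 6.12% of all genes were, and among 33 subunits of P-type and vacuolar ATPases it was 0.15, with 6 higher and 1 lower. For 15 potassium channels it was 0.06, with 2 higher and 4 lower, and for 4 SLCO genes 0.06, with 1 higher and 0 lower.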
